A study of Rattus norvegicus with 36 samples.

Results

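Cells answer a change of temperature with opposite programmes of gene expression. In heat or other protein-damaging stress, heat shock factor 1 binds heat shock elements in promoters and raises the chaperones, which hold, refold or clear unfolded proteins. In mild cold, translation and mRNA stability are instead adjusted by the RNA-binding proteins Cirbp and Rbm3, which in many tissues also follow the daily rhythm of body temperature. The genes described here are 8 of this kind in the rat. The cold-inducible ones are *Cirbp* and *Rbm3*. The heat shock ones are *Hspa1b* (inducible Hsp70), *Dnajb1* (an Hsp40 co-chaperone of Hsp70), *Hspa8* (the constitutive Hsp70), *Hsp90aa1* (the inducible cytosolic Hsp90), *Hsph1* (an Hsp110 that exchanges nucleotide on Hsp70) and *Hspb1* (the small heat shock protein Hsp27, abundant in muscle). They were chosen by name, as all probes other than controls whose transcript belongs to the listed symbols, and 6 of the 8 genes were found, on 11 of 30367 probes. *Hspa1b* and *Dnajb1* had no probe that could be matched and are named only.

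The thyroid glands of 36 adult male Sprague Dawley rats were profiled, each on a 1-colour Agilent array of rat transcripts. Of 9 groups with 4 rats each, 8 had been injected intravenously in the tail vein with the radioiodine isotope 131I in saline, in activities that from the highest down were 4700, 1300, 760, 340, 260, 170, 88 and 9 kBq, and the controls were mock-treated with saline alone. All rats were fed standard chow and killed 24 h after injection, and RNA came from individual glands. The groups were injected in order of rising activity with the controls last, so among the injected groups activity and place in the order cannot be told apart, and they differ only in where the controls stand (no activity, place 9). The question was whether the heat shock and cold-inducible genes followed the injected activity or the order of injection.

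Promoters of heat shock genes can carry the element through which heat shock factor 1 acts, and the windows of the 3 measured genes that held it are shown for that reason. Each window runs from 250 bases before to 50 bases after the annotated start of the gene, 5′ to 3′ on the gene's strand, from RefSeq (GRCr8), which held a window for 5 of the 6 measured genes. Capitals mark matches to the heat shock element, searched on both strands as 3 blocks (GAANNTTCNNGAA or TTCNNGAANNTTC) or 2 blocks (GAANNTTC or TTCNNGAA, which also lie inside the 3-block form).
Hspa8, chr8:50080264-50080563, plus strand: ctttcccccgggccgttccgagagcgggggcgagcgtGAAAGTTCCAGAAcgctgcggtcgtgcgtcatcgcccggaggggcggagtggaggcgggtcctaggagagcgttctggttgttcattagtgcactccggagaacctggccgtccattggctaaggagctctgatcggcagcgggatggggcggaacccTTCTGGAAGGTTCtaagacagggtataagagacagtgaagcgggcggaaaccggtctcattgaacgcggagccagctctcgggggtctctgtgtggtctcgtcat
Hsph1, chr12:10427118-10427417, plus strand: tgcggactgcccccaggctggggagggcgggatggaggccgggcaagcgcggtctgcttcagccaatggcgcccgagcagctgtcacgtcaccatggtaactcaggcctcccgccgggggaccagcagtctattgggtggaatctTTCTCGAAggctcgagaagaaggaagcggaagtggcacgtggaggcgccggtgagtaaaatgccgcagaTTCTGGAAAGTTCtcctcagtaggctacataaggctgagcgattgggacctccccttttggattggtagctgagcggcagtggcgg
Hspb1, chr12:26432252-26432551, minus strand: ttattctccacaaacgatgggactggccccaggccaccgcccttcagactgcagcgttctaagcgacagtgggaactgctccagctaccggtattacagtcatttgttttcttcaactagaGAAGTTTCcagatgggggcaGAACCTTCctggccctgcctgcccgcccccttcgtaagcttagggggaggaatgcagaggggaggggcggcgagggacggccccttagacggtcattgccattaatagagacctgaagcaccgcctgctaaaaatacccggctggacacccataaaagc
The *Hspa8* window held 2 of the 3-block elements and the *Hsph1* window 1, a form found in 267 of 33469 rat promoter windows (0.798%). The *Hspb1* window held 2 of the 2-block form and none of the 3-block form, and 15.9% of all windows held the 2-block form. The windows of the cold-inducible genes, *Cirbp* (chr7:10189426-10189725, minus strand) and *Rbm3* (chrX:17020655-17020954, plus strand), held neither form. The window of *Dnajb1*, which had no matched probe, held 2 of the 2-block form and is not shown.

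Values below are log2 signals minus the array's 75th percentile, so 0 is the brightness of a probe at that percentile and a difference of 1 is a doubling of signal. They are compared between rats for 1 probe at a time, never between genes. All 11 probes were well above background on all 36 arrays. *Cirbp*, *Rbm3*, *Hsph1* and *Hspb1* had 1 probe each, *Hsp90aa1* had 3 and *Hspa8* had 4, and the brightest probe stands for the gene. Over the arrays the other probes of *Hsp90aa1* correlated with the one used with r between 0.77 and 0.80, and those of *Hspa8* with r between 0.84 and 0.89, as a description.

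The samples labelled thyroid were not alike in tissue. The mean of 10 follicular cell markers (among them *Slc5a5*, *Tshr* and *Pax8*) split the 36 arrays into 18 at or above 2.22 and 18 at or below 0.07. On the 18 lower arrays *Iyd* was well above background on 4 and *Slc5a5* on 11, while *Tg* remained well above background on all 18. The 2 sets are called high and low follicular below. The 9 kBq and 340 kBq groups each had 1 high array of 4, the 4700 kBq group and the controls 3, and the other 5 groups 2. Fast muscle markers were strong nearly throughout, with a mean of 5.99 to 7.37 on the low arrays and -3.79 to 6.81 on the high ones. Of the low arrays, 11 had a squamous epithelium mean of at least 4.28 and 7 of at most -2.39. In such bulk samples, fewer cells of a type and less RNA per cell cannot be told apart. The 75th percentile ran from 1564 to 4288 and the share of probes well above background from 62.6% to 91.0%.

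*Cirbp*, the cold-inducible protein that binds and stabilises mRNAs, had the single largest difference from the controls among the 6 genes, at 9 kBq, and none of its differences passed the test. It read -2.09, -0.84, -2.35 and -2.39 in the rats given 9 kBq, -1.35, -1.98, -0.03 and -0.26 at 88 kBq, and -0.77, -0.39, -1.91 and -2.11 at 170 kBq. It read -0.37, -0.47, -1.88 and -1.88 at 260 kBq, -1.63, -1.64, -2.44 and -0.91 at 340 kBq, and -1.78, -1.80, 0.45 and -0.32 at 760 kBq. It read -1.98, -1.93, -0.31 and -0.95 at 1300 kBq, -1.06, -0.48, -1.93 and -0.69 at 4700 kBq, and -0.02, -0.80, -1.90 and -0.08 in the controls. Each group held both higher and lower rats, and each injected group overlapped the controls. The mean was lowest at 9 kBq (-1.92 ± 0.73, SD, n = 4) and highest in the controls (-0.70 ± 0.88, SD, n = 4), a difference of -1.22 ± 0.58 (SE). Its adjusted p was 0.999 with limma and Benjamini-Hochberg, at an unadjusted p of 0.0435, and the two-sided exact permutation test of 4 against 4 rats gave 0.0571, where 0.0286 is the smallest possible. Low follicular arrays were 3 of the 4 at 9 kBq and 1 of the 4 controls, and the part of tissue in this difference was not tested. The difference was -0.53 on the high follicular arrays alone, where the 1 rat left at 9 kBq was assumed to vary like the other groups. With the follicular, fast muscle and squamous means as covariates it was -0.45 (limma, unadjusted p = 0.0427, adjusted p = 0.708). Both alternatives were chosen after seeing the data. With array weights the difference was -1.93 and was called (limma, adjusted p = 0.00979), the lone alternative to call it.

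The clusters of *Cirbp* were the follicular sets. It lay between -2.44 and -1.35 on the 18 low arrays and between -1.06 and 0.45 on the 18 high arrays, without overlap, a description with no test since the sets were drawn from the same arrays. Within the 14 high arrays whose fast muscle mean was at least 5.32, *Cirbp* was higher where the follicular mean was higher (r = 0.66, permutation p = 0.00941, rho = 0.67, permutation p = 0.0108, and r = 0.60 without the 2 arrays farthest out, r = 0.70 with slide means removed). Within the 11 low arrays with high squamous markers r was 0.39 (permutation p = 0.221), rho 0.29 (permutation p = 0.386) and r 0.24 without the 2 farthest. The 14 high arrays gave r = -0.60 (permutation p = 0.0262) and rho = -0.48 (permutation p = 0.0853) between *Cirbp* and the log2 75th percentile, r = -0.46 without the 2 farthest and -0.70 with slide means removed. In the 11 low arrays it gave r = -0.62 (permutation p = 0.0375) and rho = -0.72 (permutation p = 0.0164), r = -0.43 without the 2 farthest and -0.49 with slide means removed. In each cluster 18 such relations were computed, 2 of them with a p under 0.05 in the high arrays. The 75th percentile is subtracted from *Cirbp* and from the marker means alike, which links all these values by construction. The permutation p does not allow for that link, so these relations are a description. The part of tissue in the *Cirbp* differences was not tested.

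**Figure D1:**
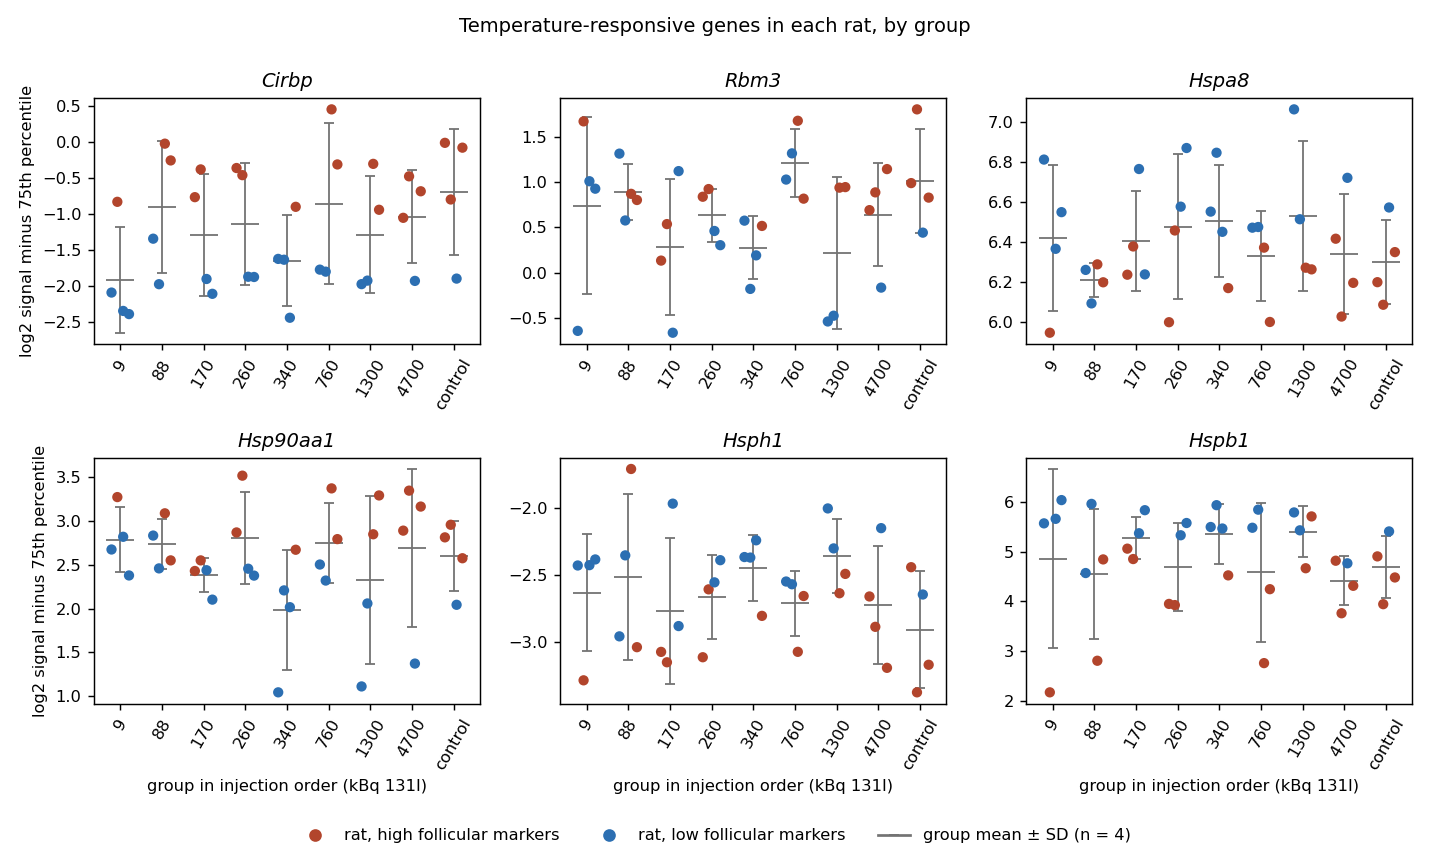
Each point is 1 rat, its height the log2 signal minus the array's 75th percentile, with the groups in injection order on the horizontal axis (kBq of 131I, controls last), coloured by follicular markers, and bars give the mean ± SD (n = 4). Cirbp is above -1.06 or equal to it on all 18 high follicular arrays and at most -1.35 on all 18 low ones, whichever the group, and for none of the 6 genes does an injected group stand clear of the controls.

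*Rbm3*, the other cold-inducible RNA-binding protein, was read at -0.64, 1.67, 1.01 and 0.93 at 9 kBq, 1.31, 0.58, 0.87 and 0.80 at 88 kBq, and 0.14, 0.54, -0.66 and 1.12 at 170 kBq. It was read at 0.84, 0.92, 0.46 and 0.30 at 260 kBq, 0.57, -0.18, 0.19 and 0.52 at 340 kBq, and 1.03, 1.31, 1.67 and 0.82 at 760 kBq. It was read at -0.53, -0.47, 0.94 and 0.94 at 1300 kBq, 0.69, 0.89, -0.16 and 1.14 at 4700 kBq, and 0.99, 1.80, 0.44 and 0.83 in the controls. The group means ran from 0.22 ± 0.83 (SD, n = 4) at 1300 kBq to 1.21 ± 0.37 (SD, n = 4) at 760 kBq, in no order of activity, and the groups overlapped. The largest difference from the controls was -0.80 ± 0.42 (SE) at 1300 kBq (limma, adjusted p = 0.84). *Rbm3* was below 0 on 6 arrays, all of them among the 7 low follicular arrays with low squamous epithelium markers. On the other 1 of these, rat 1 at 88 kBq with a squamous mean of -2.39, it was 1.31. These 7 arrays also had fast muscle means of 6.75 to 7.37 and log2 75th percentiles of 10.81 to 11.30. On the 11 low arrays with high squamous markers it lay between 0.19 and 1.31, and on the 18 high follicular arrays between 0.14 and 1.80. Within those 11, *Rbm3* and the fast muscle mean had r = -0.61 (permutation p = 0.0507) and rho = -0.71 (permutation p = 0.0182). Within the 14 high arrays with strong muscle markers they had r = -0.29 (permutation p = 0.318) and rho = -0.56 (permutation p = 0.0423). The subtracted percentile links these values too, so they are a description.

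*Hspa8*, the constitutive Hsp70 whose window above holds 2 of the 3-block elements, varied least. Its group means ran from 6.21 ± 0.09 (SD, n = 4) at 88 kBq to 6.53 ± 0.37 (SD, n = 4) at 1300 kBq, against 6.30 ± 0.21 (SD, n = 4) in the controls. The rats at 4700 kBq read 6.42, 6.03, 6.72 and 6.20 and the controls 6.20, 6.09, 6.57 and 6.35, which overlap. In both sets of arrays *Hspa8* was higher where the 75th percentile, which is subtracted from it, was lower: r = -0.65 (permutation p = 0.0377) and rho = -0.75 (permutation p = 0.0106) over the 11 low arrays with high squamous markers, r = -0.75 without the 2 farthest and -0.41 with slide means removed. Over the 14 high arrays r was -0.46 (permutation p = 0.0964) and rho -0.58 (permutation p = 0.033), with r = -0.49 without the 2 farthest and -0.54 with slide means removed. The fast muscle mean also moved with *Hspa8* in the 11 low arrays (r = 0.70, permutation p = 0.0152, rho = 0.75, permutation p = 0.00961, r = 0.65 without the 2 farthest and 0.69 with slide means removed), while in the 14 high arrays r was -0.11 (permutation p = 0.695). In the low arrays 4 of the 18 relations computed had a p under 0.05. The subtraction links *Hspa8* both to the percentile and to the muscle mean, and the permutation p does not allow for it.

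*Hsp90aa1*, the inducible Hsp90, had group means from 1.99 ± 0.68 (SD, n = 4) at 340 kBq to 2.80 ± 0.52 (SD, n = 4) at 260 kBq, with 2.60 ± 0.40 (SD, n = 4) in the controls. Single rats at 340, 1300 and 4700 kBq were low, at 1.04, 1.11 and 1.37, and all 3 were low follicular. The rats at 1.04 and 1.11 also had the lowest 75th percentiles of all arrays, 1564 and 1797. At 340 kBq the probe used differed from the controls by -0.61, and the other probes of *Hsp90aa1* by -0.20 and -0.15. The SD between the rats of that group was 0.68 on the probe used, and 0.19 and 0.30 on the others. *Hsph1*, the Hsp110, had its lowest group mean in the controls (-2.91 ± 0.44, SD, n = 4) and its highest at 1300 kBq (-2.36 ± 0.27, SD, n = 4), a difference of 0.55 ± 0.30 (SE) with an adjusted p of 0.84 (limma, Benjamini-Hochberg). At 1300 kBq the rats read -2.0, -2.30, -2.64 and -2.49, and the controls -2.44, -3.37, -2.64 and -3.17. The 2 groups overlapped, with 2 of the 4 rats at 1300 kBq above all controls.

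*Hspb1*, the small heat shock protein, was read at 5.57, 2.17, 5.66 and 6.04 at 9 kBq, 4.57, 5.96, 2.81 and 4.84 at 88 kBq, and 5.06, 4.85, 5.37 and 5.83 at 170 kBq. It was read at 3.95, 3.93, 5.33 and 5.58 at 260 kBq, 5.50, 5.93, 5.47 and 4.52 at 340 kBq, and 5.48, 5.84, 2.76 and 4.25 at 760 kBq. It was read at 5.79, 5.43, 4.67 and 5.71 at 1300 kBq, 4.82, 3.76, 4.77 and 4.31 at 4700 kBq, and 4.90, 3.94, 5.41 and 4.48 in the controls. Its group means ran from 4.42 ± 0.49 (SD, n = 4) at 4700 kBq to 5.40 ± 0.51 (SD, n = 4) at 1300 kBq, neighbours in activity, and each group overlapped the controls. It was lowest on the 4 high follicular arrays with a fast muscle mean of at most 2.93, where it lay between 2.17 and 3.76. On the other 14 high arrays it lay between 3.93 and 5.71, and on the low follicular arrays between 4.57 and 6.04. Within those 14 its r with the fast muscle mean was 0.44 (permutation p = 0.115), and 0.09 without the 2 farthest. Within the 11 low arrays with high squamous markers the sign was opposite (r = -0.58, permutation p = 0.0617, rho = -0.65, permutation p = 0.033).

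**Figure D2:**
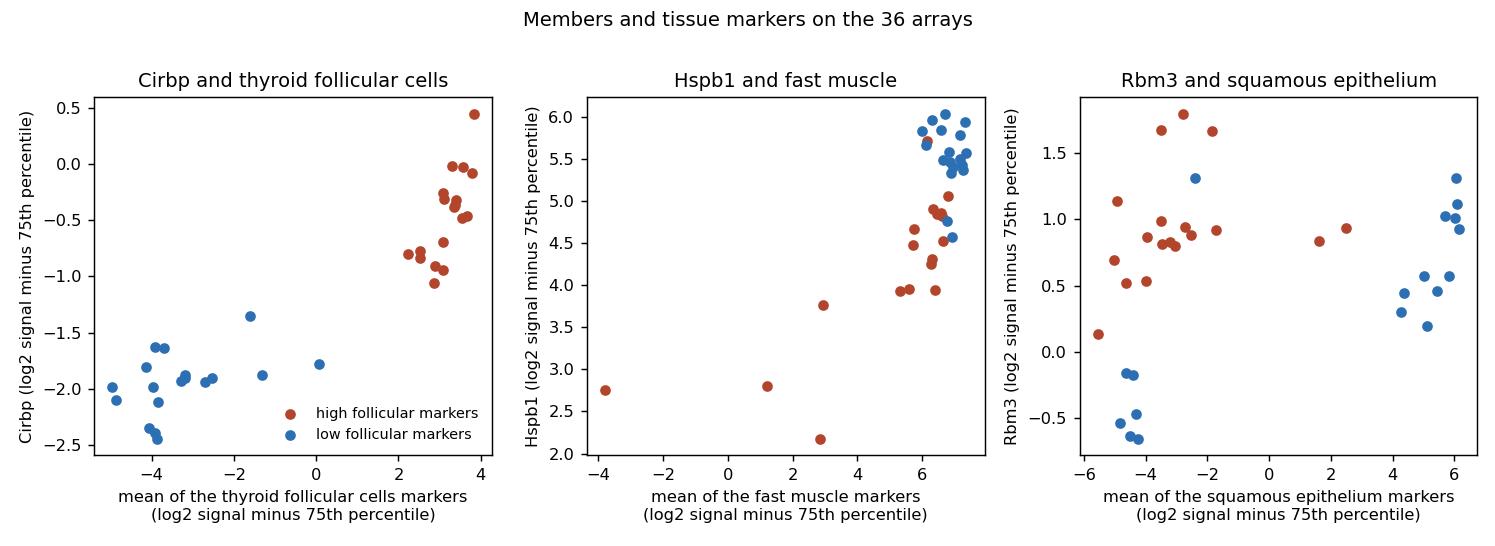
Each point is 1 of the 36 arrays, with the mean of a tissue's markers on the horizontal axis and 1 gene on the vertical axis (both log2 signal minus 75th percentile), coloured by follicular markers. Cirbp separates the 2 follicular sets, Hspb1 is at most 3.76 on the 4 arrays with fast muscle means of at most 2.93, and the 6 arrays with Rbm3 below 0 lie together at low squamous and low follicular means.

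Against the controls, 0 of the 6 genes were called (adjusted p under 0.01 and fold change of at least 1.5) in any of the 8 comparisons, where the share of all 30367 probes called was also 0% in each. At an unadjusted p under 0.05 there was 1 call in these 48 tests, *Cirbp* at 9 kBq, where 3.22% of all probes passed. In the other comparisons 0 of the 6 genes did, where the share of all probes was 3.36% at 88 kBq, 2.36% at 170 kBq, 1.12% at 260 kBq, 13.7% at 340 kBq, 1.64% at 760 kBq, 4.18% at 1300 kBq and 1.66% at 4700 kBq. The lowest adjusted p of any of the genes was 0.458, for *Rbm3* at 340 kBq. The two-sided exact permutation tests of 4 against 4 rats, 54 with the comparison of 4700 kBq with 9 kBq, gave 0 values under 0.05 and 0 pairs of groups without overlap. Of all probes the share without overlap was 1.73% at 9 kBq, 1.86% at 88 kBq, 1.25% at 170 kBq, 1.07% at 260 kBq, 4.34% at 340 kBq, 1.63% at 760 kBq, 1.26% at 1300 kBq and 1.27% at 4700 kBq against the controls, and 3.78% between 4700 and 9 kBq. The cold-inducible genes were below the controls in 15 of 16 comparisons, *Rbm3* at 760 kBq being the exception (0.19 ± 0.42, SE), and the heat shock genes in 7 of 32, and none of these was called. Beside these counts, the median difference of all probes was above 0 in each of the 8 comparisons, from 0.03 at 260 kBq to 0.31 at 340 kBq. With quantile normalization that median ran from -0.02 at 760 kBq to 0.04 at 1300 kBq. All 8 comparisons share the same 4 controls, 3 of which were high follicular, and the mean of *Cirbp* was -0.46 on the high and -1.94 on the low follicular arrays and that of *Rbm3* 0.94 and 0.37. The part of tissue in these counts was not tested. The median difference of all probes was 0.31 at 340 kBq and 0.22 at 1300 kBq, where *Hspa8* differed from the controls by 0.20 and 0.23.

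**Figure D3:**
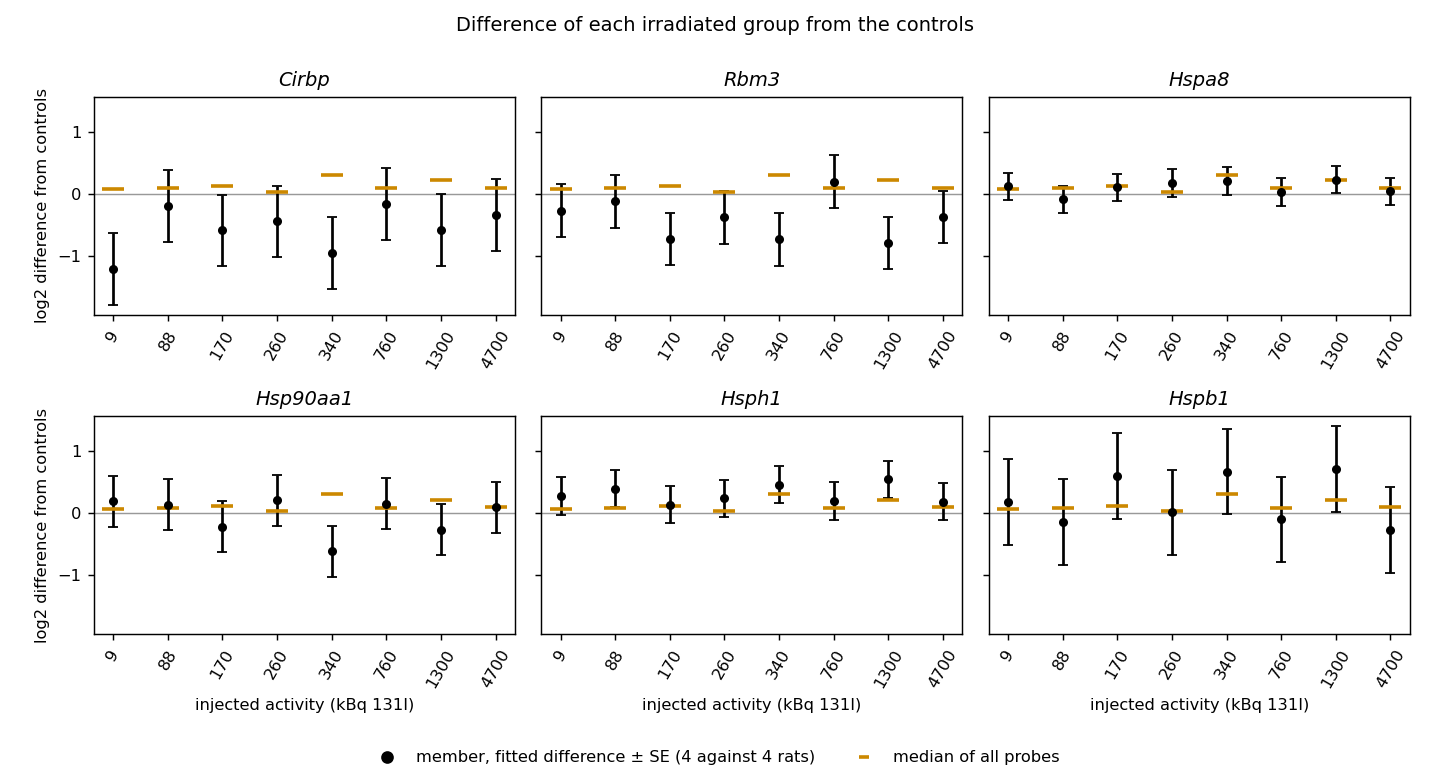
Points give the fitted log2 difference of each irradiated group from the controls for each gene, with its SE from the fit over all groups, and orange marks give the median of all probes. Cirbp lies lowest, at -1.22 for 9 kBq, Hspa8 stays between -0.09 and 0.23, and no difference passed the test.

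Over the order of injection, 0 of the 6 genes were called (limma, adjusted p under 0.05), where 22 probes or 0.0724% of all were. *Cirbp* had the steepest slope, 0.08 ± 0.05 (SE) log2 per place, with an adjusted p of 0.776, and *Rbm3* had 0.01 ± 0.04. The slopes of the heat shock genes were between -0.02 for *Hsp90aa1* and 0.00 for *Hspa8*. The cold-inducible genes had a median slope of 0.05 and the heat shock genes one of -0.02, beside a median over all probes of 0.00. With the controls ranked by activity instead, at the lower end, the slope of *Cirbp* was 0.00 ± 0.05 (SE) and that of *Rbm3* -0.04 ± 0.04, with 0 genes called against 0.0263% of all probes. Over the 8 injected groups alone 0 genes were called against 0.0692%, with slopes of 0.06 ± 0.06 (SE) for *Cirbp* and from -0.03 to 0.01 for the heat shock genes. Between 4700 and 9 kBq, injected farthest apart, 0 genes were called against 0.0165%, and *Cirbp* differed by 0.88 ± 0.58 (SE, adjusted p = 0.702). At an unadjusted p under 0.05, 0 of the 6 genes passed in these 4 tests, where 7.41%, 6.68%, 8.81% and 8.21% of all probes did.

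Differences between groups made up 13.6% of the variance between rats for *Hspa8* and 28.2% for *Rbm3*, with the others between, and 22.9% is the share that 9 groups of 4 would show with no difference at all.

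The rest of the chaperone and cold-response machinery was given by lists chosen for their roles, with 59 of 62 genes measured, and 0 of the 59 were called in any of the trends. In the injection order 2 genes had an unadjusted p under 0.05, where 7.41% of all probes did, both with slopes above 0: *Hsbp1*, which encodes a small protein that binds heat shock factor 1 (0.04 ± 0.02, SE, adjusted p = 0.638), and *Dnajb4*, an Hsp40 (0.05 ± 0.02, SE, adjusted p = 0.597). Over the injected groups alone 3 genes had such a p with slopes above 0 and 3 with slopes below 0, where 8.81% of all probes passed. *Hsf1* itself had a slope of 0.00 ± 0.02 (SE). Of the other Hsp70 and Hsp110 genes, 4 of 7 had slopes above 0, from -0.08 for *Hspa4l* to 0.16 for *Hspa2*, and the median was 0.00. Of the other cytosolic Hsp90 genes and co-chaperones 6 of 14 did, from -0.02 for *Fkbp4* to 0.03 for *Sugt1*. Of the other small heat shock genes 5 of 6 did, from -0.06 for *Hspb7* to 0.05 for *Hspb3*. The mitochondrial chaperones were between -0.01 for *Hspd1* and 0.03 for *Clpb*. The splicing kinases and factors that respond to body temperature in other tissues ran from -0.04 for *Srsf2* to 0.02 for *Clk4*.

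Clock genes in the same fit held called slopes. All 8 measured genes of the *Dbp* phase had slopes above 0, 2 of them called, *Dbp* (0.43 ± 0.04, SE) and *Ciart* (0.45 ± 0.08, SE). All 5 of the opposite phase had slopes below 0, 2 of them called, *Bmal1* (-0.29 ± 0.03, SE) and *Cry1* (-0.23 ± 0.04, SE). These lists were known from earlier results of the same data to move and are shown for scale. The slope of *Cirbp* was 0.08 ± 0.05 (SE) on that scale, against a median of 0.20 for the *Dbp* phase. It was above only the lowest of that list, *Per1* (0.02 ± 0.04, SE). *Hspa2* had 0.16 ± 0.08 (SE, limma adjusted p = 0.683), near the 0.15 ± 0.04 (SE, limma adjusted p = 0.187) of *Per3* but with a wider error, and neither was called.

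**Figure D4:**
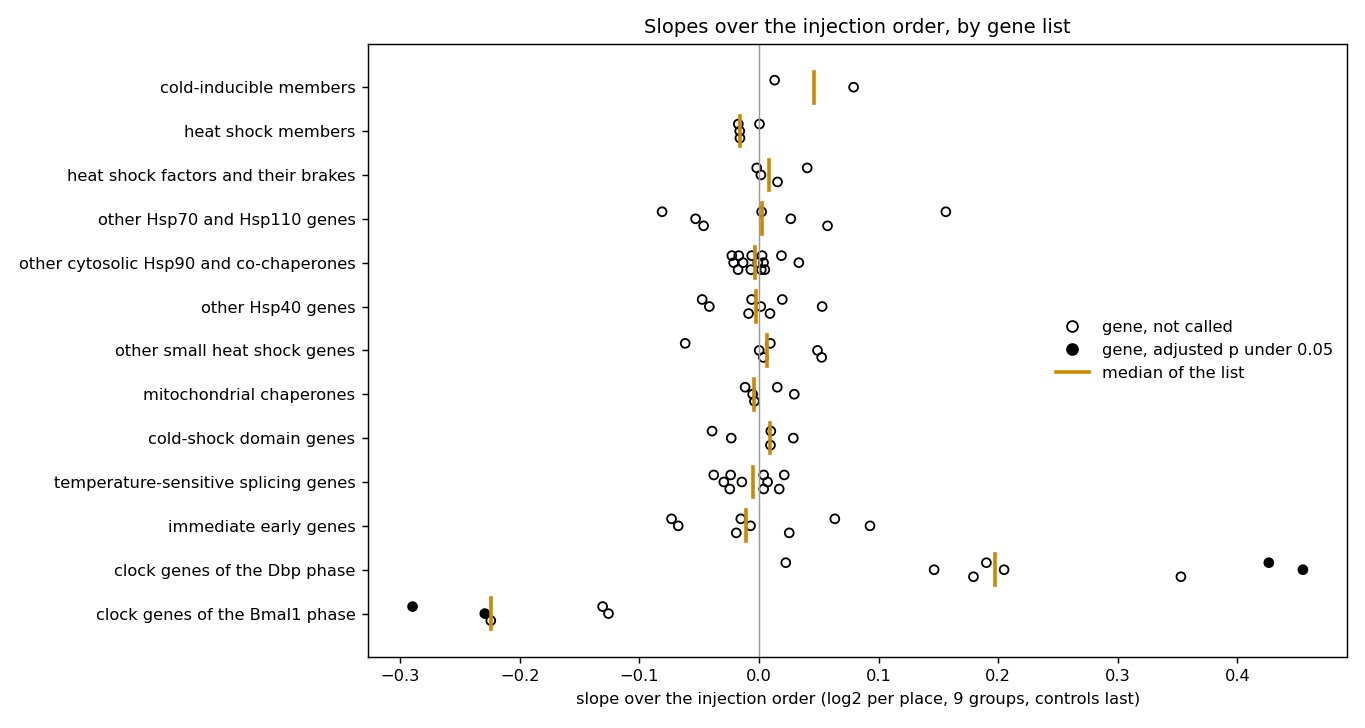
Each circle is 1 gene, placed by its slope over the injection order (log2 per place over 9 groups, controls last), filled where the adjusted p is under 0.05, with orange bars for the median of each list. The temperature-responsive lists lie around 0, with Cirbp at 0.08, while the clock lists lie at medians of 0.20 and -0.22.

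Relations between pairs of genes across rats were examined inside tissue clusters, without removing group means. Inside the 14 high follicular arrays with strong muscle markers, 0 of the 15 pairs of genes had a permutation p under 0.05 for Pearson's r, which ran from -0.42 to 0.51. By ranks, *Rbm3* and *Hsp90aa1* rose together there (rho = 0.72, permutation p = 0.00503, beside r = 0.51, permutation p = 0.0676). Ranks were tested for all 15 pairs too, with no adjustment for their number. Inside the 11 low arrays with high squamous markers 0 of 15 pairs had such a p for r, which ran from -0.51 to 0.54. *Rbm3* and *Hsp90aa1* had rho = 0.36 in those 11 (permutation p = 0.275). In the whole high and low follicular sets, which mix tissue clusters, 3 of the 15 pairs in each had a permutation p under 0.05 for r. In the high set they were *Rbm3* with *Hsp90aa1* (r = 0.60) and *Hspb1* (r = -0.61), and *Hsp90aa1* with *Hspb1* (r = -0.52). In the low set they were *Rbm3* with *Hsph1* (r = -0.75) and *Hspa8* (r = -0.71), and *Hsph1* with *Hspa8* (r = 0.59). With quantile normalization the r with *Hspa8* there turned to 0.24 for *Rbm3* and -0.21 for *Hsph1*. No correlation over all 36 arrays is given for pairs, since the arrays fell into clusters by tissue.

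The genes most like each member over the 36 arrays, among 9404 genes well above background throughout, are given as a description, since the arrays share their tissue clusters. For *Cirbp* they were *Dennd6a* (r = 0.97), *Zmym3* (r = 0.97) and *Bbs2* (r = 0.96), and inside the 18 high arrays the same 3 had r of 0.89, 0.85 and 0.80, and inside the 18 low arrays 0.68, 0.76 and 0.66. For *Rbm3* they were *Arpc3* (r = 0.93), *Ssrp1* (r = 0.92) and *Arpc5* (r = 0.91). For *Hspb1* they were *Clip4* (r = 0.91), *Mybph* (r = 0.90), a myosin-binding protein of muscle, and *Asb5* (r = 0.90), and inside the 18 low arrays these had r of 0.71, 0.60 and 0.05. *Hspa8* was most like *Oaz1* (r = 0.91), the antizyme of ornithine decarboxylase. *Hsp90aa1* was most like *Lrrc14* (r = 0.855) and *Hsph1* like *Eif3a* (r = 0.82), a subunit of a translation initiation factor. None of the 18 nearest genes, 3 for each member, was in the lists above.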

How the data were processed

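RNA of 36 individual rat thyroids was hybridised by the authors to 1-colour Agilent arrays, 8 arrays to a slide at most on 5 slides. The processed signal deposited by the authors is an intensity on a linear scale from which Feature Extraction 10.7.3.1 had subtracted background, per the file headers, with no normalization between arrays. A matrix deposited by the authors, with 1 intensity per probe, served as an alternative; the submitters' processing notes name Partek. From the processed signal, without control or outlier spots, log2 values were taken relative to each array's own 75th percentile and then averaged over a probe's spots. Every one of the 30367 probes entered, 99 of them with a value missing on at least 1 array and fitted on the rest, and 0 spots were saturated. One other *Hspa8* probe had a value on 35 arrays. Symbols came from transcript names through RefSeq (17998 probes, 15154 genes).

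Group means over the 36 arrays were estimated by limma 3.58.1 (R 4.3.3), with contrasts of each irradiated group with the controls, of 4700 with 9 kBq, and slopes over place, activity rank and the injected groups. Benjamini-Hochberg adjustment covered all probes. The call rule for groups (adjusted p under 0.01, fold change of at least 1.5) is that of the study. Exact permutation tests and correlations (100000 permutations) used scipy 1.17.1 and numpy 2.4.6 in Python 3.11.15. The correlation of pairs had been planned over deviations from the group means of all 36 rats, permuted within groups. It was run inside tissue clusters instead because the arrays fell into them. There, group means were not removed and arrays were permuted across groups, for pairs and for markers. Differences between groups and between rats are therefore mixed in these correlations and their p. Simulated data drawn with the SDs of 30268 probes were used to check the fit: for 4700 kBq against the controls, a change of 4 SDs was called in 68.8% of 109 probes and one of 2 SDs in 3.3% of 91. The slope over the order of 0.5 SD per place was called in 100% of 102, in a simulation of the order that also gave 16 false calls. Smaller slopes were not simulated, such as the 0.08 per place of *Cirbp* beside a median SD between rats of 0.84. The simulated noise was normal and independent between arrays and probes, without the tissue clusters. The 100% therefore does not tell how often slopes of the size seen would be called. Precision is set by how many arrays there are. Genes were named by a rule: the members, at most 4 genes per list with the most positive and negative order slopes or called, and the 3 genes most like each member. The members and lists were chosen with earlier results of these data known. Alternatives on normalization, background, probes, slide, animal number, weights, variance model and single rats are given in the closing section.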

Additional observations from a re-analysis of the deposited data

Results flagged for a closer look

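In 2 of the 54 groups of 4 rats examined (6 genes, 9 groups), 1 rat lay far from the other 3 by Dixon's criterion, which flags about 1 in 20 groups by chance. Both were rat 2 of the 9 kBq group. *Hsph1* was -3.28 there, against -2.43 to -2.38 in the other 3 rats, and *Hspb1* was 2.17, against 5.57 to 6.04. This rat was the single high follicular one of its group, with a follicular mean of 2.53 against -4.86 to -3.91, and its fast muscle mean was 2.84 against at least 6.11. The part of tissue in these values was not tested.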

How the results depend on the processing

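Of the alternatives, those on normalization (quantile, median centring, normexp with offset 50, the authors' matrix), the filter on dim probes, slide as a block, the variance model and the other threshold left 0 members called in each comparison, as did leaving out each of the 36 rats (range 0 to 0) and the replicate block on animal number. Array weights, whose estimation stopped before its tolerance was reached, called 1 member against the controls and 1 at 4700 against 9 kBq, *Cirbp* both times (-1.93, adjusted p = 0.00979, and 1.46, adjusted p = 0.00709, limma). The alternatives chosen after seeing the data called 0 members: the high follicular arrays alone, and the means of the follicular, fast muscle and squamous lists as covariates. With the covariates the *Cirbp* difference between 4700 and 9 kBq was -0.06, and on the high arrays alone *Hspb1* at 9 kBq, left with 1 array assumed to vary like the others, was -2.27 and its order slope 0.18 (unadjusted p = 0.02, adjusted p = 0.34). Quantile normalization turned *Hspa8* at 340 kBq from 0.20 to -0.16. Of 3444 recomputed differences and slopes of single genes, 3427 moved by less than the spread between rats, with changes of slopes taken times 8. Many of the 3444 could not move. A difference between 2 groups stays the same when a rat of another group is left out. It also stays the same under the filter on dim probes and the other variance model. The count is therefore no measure of how robust the values are. Animal numbers did not pair the rats (mean correlation of deviations -0.02 over 144 same-numbered pairs). The number of probes called varied far more than that of members: 0 against the controls, 5 at 4700 against 9 kBq, 8 over activity, 22 over the order and 21 over injected groups became 390, 3647, 40, 1015 and 137 with array weights, 3720, 15, 1268, 21 and 56 on the high arrays alone, and 4, 6, 23, 100 and 119 with the covariates. The order gave 7 with slide as a block, 11 with median centring, 12 with normexp, 14 with the authors' matrix, 16 with the replicate block and 41 without dim probes. Calls of 9 probes at 4700 against 9 kBq and 11 against the controls came from an adjusted p under 0.05, and 8 over the order, 11 over injected groups from one under 0.01. Leaving out single rats gave 0 to 6 probes against the controls, 0 (without 9 kBq rat 4) to 6 at 4700 against 9 kBq, 6 to 10 over activity, 10 (without 9 kBq rat 2 or 4700 kBq rat 4) to 30 (without 9 kBq rat 1) over the order and 11 (without 9 kBq rat 3) to 33 (without 9 kBq rat 1) over injected groups. Slide as a block left 3 at 4700 against 9 kBq, and normexp 4 against the controls. With 4 rats a group, changes of 2 SDs were rarely called in simulated data.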

Other observations

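Immediate early genes, which respond within minutes to handling, serum or stress, were measured for 8 of 9 listed genes and 0 were called over the injection order. Their slopes ran from -0.07 for *Egr2* to 0.09 for *Atf3* (0.09 ± 0.07, SE, limma adjusted p = 0.787), 3 of 8 above 0.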
